A study of Mus musculus with 8 samples.

Results

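The chemokine genes Ccl1, Ccl3, Ccl4, Ccl5 and Xcl1, 5 of the 55367 genes counted in both meningeal libraries, were followed in single T cells from the mouse meninges. Each was found by its symbol in the gene list of both expression matrices, and each symbol matched 1 gene. The 5 were picked because earlier results of these same data had shown them in meningeal T cells, with Xcl1 named in the comparison of cells with and without Foxp3. Their presence in T cells and the Foxp3 comparison are therefore given as description, with no test.

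The meningeal T cells came from perfused mice and were sorted as live CD45+ CD3+ CD4+ cells in 2 replicates, each with RNA, T-cell receptor and hashtag antibody libraries. Replicate 1 was of genotype Foxp3-GFP, replicate 2 of genotype B6.WT, with no treatment listed for either. The replicates also differed in library and depth, so genotype, library and replicate cannot be told apart, and every comparison was made within a replicate. The series also holds 2 hippocampal libraries, of sorted CD45- Thy1- cells: a pool of 2 Foxp3-DTR+ mice and a pool of 2 littermate Foxp3-DTR- mice, each after diphtheria toxin. The labels do not give the age, sex or number of the meningeal mice. Nothing in the labels says whether each replicate was 1 mouse or a pool, so the spread between them may be technical.

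Chemokines are small secreted proteins that guide cells along a gradient by binding receptors on the cells that follow it. Ccl3, Ccl4 and Ccl5 are inflammatory chemokines that draw T cells, monocytes and macrophages. Ccl1 binds Ccr8, found on regulatory and type 2 helper T cells, and Xcl1 binds Xcr1, a receptor of cross-presenting dendritic cells. Effector and memory T cells hold Ccl5 transcripts at rest, whereas Ccl1, Ccl3, Ccl4 and Xcl1 are known as genes switched on within hours of T-cell receptor signalling, in part by NFAT factors.

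After the filters 1516 T cells remained in replicate 1 and 3144 in replicate 2, and the transcript molecules were counted as unique molecular identifiers (UMIs). The T-cell totals were 5100697 and 5783715 UMIs. The median cell held 2903 and 1600 UMIs. Cd3e was detected in 93.3% and 86.7% of them and Cd4 in 44.7% and 29.2%, and the lists of mast-cell genes had no UMI. Summed levels of the B-cell list were 4.90 and 5.71 CPM (a gene's UMIs scaled to a total of 1000000). Over the classes used below they ranged from 0 to 24.8 and from 0 to 17.6 CPM and were highest in the Foxp3 class (9.0% and 3.3% of its cells, from 8 and 11 UMIs), and the part of this in the results was not tested. Those of the list for myeloid cells, which also make Ccl3 and Ccl4, were 11.8 and 26.5 CPM. Of its 9 genes 2 and 1 were at 0, and its level over the T-cell classes used below ranged from 0 to 38.5 CPM in replicate 1 and from 16.9 to 36.0 CPM in replicate 2, within a limit of 1 such UMI per cell set by the filter. The 2 meningeal libraries shared 554 barcodes, of which 4 were T cells in both.

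The genes Ccl1, Ccl3, Ccl4 and Ccl5 lie on mouse chromosome 11 and Xcl1 lies on chromosome 1. In the GENCODE annotation of GRCm38, Ccl5 spans chr11:83525778-83530518, Ccl3 chr11:83647844-83649355 and Ccl4 chr11:83662584-83664683, so that Ccl3 and Ccl4 lie closest together. Ccl3 and Ccl4 are read from opposite strands. In RefSeq a longer form of Ccl4 starts at chr11:83648624, inside Ccl3, and the 2 genes then overlap on opposite strands. Ccl1 spans chr11:82176666-82179812 in RefSeq, and Xcl1 chr1:164931644-164935522.

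The 250 bases before the start sites of Ccl1, Ccl3 and Xcl1, the 3 of the 5 genes matched in the RefSeq promoter table (GRCm38.p6), are shown because these genes are known targets of receptor signalling. All 3 genes are on the minus strand, and the sequence is printed 5′ to 3′ of the gene, with every NFAT core (GGAAA, or TTTCC on the other strand) in capitals.
Ccl1, chr11:82179813-82180062: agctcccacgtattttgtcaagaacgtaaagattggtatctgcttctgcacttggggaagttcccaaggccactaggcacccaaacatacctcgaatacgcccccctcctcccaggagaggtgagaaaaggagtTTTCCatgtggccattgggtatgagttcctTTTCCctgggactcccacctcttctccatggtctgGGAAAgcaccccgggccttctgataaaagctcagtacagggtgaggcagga
Ccl3, chr11:83649379-83649628: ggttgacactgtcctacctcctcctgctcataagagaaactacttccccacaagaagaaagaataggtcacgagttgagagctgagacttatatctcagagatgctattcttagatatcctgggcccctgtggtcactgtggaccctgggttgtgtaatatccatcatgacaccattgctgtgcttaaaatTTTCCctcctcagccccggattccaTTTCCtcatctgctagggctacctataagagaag
Xcl1, chr1:164935523-164935772: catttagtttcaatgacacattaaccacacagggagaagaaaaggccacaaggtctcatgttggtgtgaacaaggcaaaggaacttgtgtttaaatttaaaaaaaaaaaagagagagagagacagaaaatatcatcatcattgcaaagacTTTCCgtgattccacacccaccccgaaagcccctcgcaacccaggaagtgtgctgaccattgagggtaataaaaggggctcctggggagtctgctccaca
The Ccl1 window held 3 NFAT cores, at 116, 86 and 51 bases before the start. The Ccl3 window held 2, at 59 and 34 bases, and the Xcl1 window held 1, at 100 bases. Of 32841 mouse promoter windows of this length 55.6% held at least 1 such core, 21.4% at least 2 and 6.39% at least 3, so the motif is common and a match is only a description. The AP-1 motif TGANTCA (6.75% of windows) and the CRE motif TGACGTCA (1.55%) were in none of the 3. The T-box motif TCACAC, or GTGTGA on the other strand (12.3% of windows), was found in the Xcl1 window alone, at 187 bases. All motifs were sought on both strands, and the NFAT core overlapped none of the others.

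In the 2 replicates the 5 genes fell into a commonly detected pair, Ccl5 and Xcl1, and a rarely detected trio, Ccl1, Ccl3 and Ccl4. Ccl5 was detected in 780 of 1516 T cells (51.5%, exact binomial 95% interval for counting error 48.9 to 54.0) in replicate 1 and in 1436 of 3144 (45.7%, 43.9 to 47.4) in replicate 2. Its level was 1878 and 1177 CPM. Xcl1 was detected in 321 cells (21.2%, 19.1 to 23.3) and 502 cells (16.0%, 14.7 to 17.3), at 239 and 202 CPM. With every cell thinned to 1000 UMIs, which kept 1437 and 2777 cells, Ccl5 was detected in 42.4% and 38.1% and Xcl1 in 10.5% and 11.5%. The shares of both genes in the 2 replicates lay closer after thinning than before.

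The trio was found in few cells, each of which could hold very many UMIs. Ccl4 was detected in 51 cells (3.36%) of replicate 1 and 42 cells (1.34%) of replicate 2, at 196 and 78.5 CPM. Ccl1 was detected in 10 cells (0.66%) and 42 cells (1.34%), at 57.2 and 216 CPM. Ccl3 was detected in 14 and 15 cells, at 11 and 13.5 CPM. The richest single cell held 507 and 97 Ccl4 UMIs, 208 and 323 Ccl1 UMIs, and 41 and 30 Ccl3 UMIs in replicates 1 and 2. The higher level of Ccl4 in replicate 1 therefore rested on a handful of cells. The higher level of Ccl1 in replicate 2 was spread over more cells. There 15 cells held 10 or more Ccl1 UMIs, against 2 cells of replicate 1.

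The 5 richest cells held 98.3% of all Ccl1 UMIs in replicate 1 and 64.2% in replicate 2. For Ccl4 they held 90.7% and 64.1%, and for Ccl3 83.9% and 75.6%. For Xcl1 the share was 39.5% and 20.5%, and for Ccl5 8.95% and 5.95%. The order of concentration thus put Ccl5 lowest and Xcl1 next in both replicates, with the trio above them. The contrast was wide in the number of cells needed: 50% of the Ccl5 UMIs needed 88 and 196 cells, 50% of the Xcl1 UMIs needed 15 and 69, and 50% of the Ccl1 UMIs needed 1 and 4. Cells with 10 or more UMIs of Xcl1 held 47.5% and 27.5% of its UMIs, so that Xcl1 had both a broad low part and a rare high part.

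**Figure D1:**
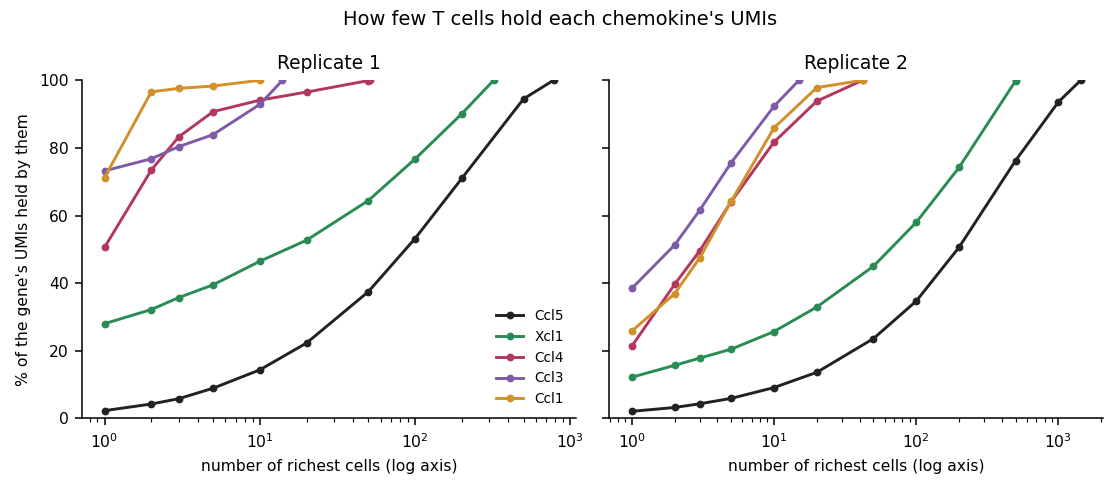
Share of each gene's UMIs (vertical axis, %) held by its richest T cells (horizontal axis, number of cells, log axis) in replicate 1 (left) and replicate 2 (right), 1 line per gene. The Ccl5 line rises last, with 5.95% to 8.95% of its UMIs in its 5 richest cells, and the lines of Ccl1, Ccl3 and Ccl4 rise first, with 64.1% to 98.3%.

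To follow the genes across T-cell states, the cells were placed in 7 classes that do not overlap. Invariant natural killer T cells carry a nearly fixed T-cell receptor alpha chain joining TRAV11 to TRAJ18, which recognises lipids on Cd1d, and 111 and 387 cells with that chain were set apart by receptor alone. Its junction is shown because it defines the class. The capital at position 12, counted from the 5′ end, is the base that varied, and it is the third base of a glycine codon.
TRAV11-TRAJ18 with C: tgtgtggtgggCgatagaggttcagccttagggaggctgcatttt
TRAV11-TRAJ18 with G: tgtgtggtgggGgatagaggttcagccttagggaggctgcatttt
TRAV11-TRAJ18 with A: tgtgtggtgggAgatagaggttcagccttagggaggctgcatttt
TRAV11-TRAJ18 with T: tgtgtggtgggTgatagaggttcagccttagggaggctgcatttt
These 4 forms were held by 38, 30, 21 and 10 of the 111 cells in replicate 1 and by 144, 114, 66 and 45 of the 387 in replicate 2. Among the cells with the chain, Zbtb16, the transcription factor of natural killer T cells, was detected in 18.0% and 11.9%, against 2.0% and 3.1% of all T cells. The receptor subunit Il2rb was detected in 92.8% and 80.6%, against 57.0% and 55.6%. Their Cd4 share, 19.8% and 16.0%, was below that of all T cells although the sort was on CD4 protein.

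The other cells were classed by UMIs: a Tbx21 or Ifng UMI (genes of type 1 helper cells; 388 and 551 cells), a Foxp3 UMI (regulatory T cells; 89 and 334), a Sostdc1 or Il21 UMI (genes of follicular helper cells; 22 and 20), or more than 1 of these (15 and 59). Of the rest, 134 and 194 cells with at least 2 genes of a list for naive T cells, among them Ccr7 and Lef1, were called naive-type, and 757 and 1599 were left as other. The classes matched their labels: Ctla4 was found in 62.9% and 35.6% of the Foxp3 class and Pdcd1 in 81.8% and 45.0% of the Sostdc1/Il21 class. Cxcr3 was found in 74.0% and 51.2% of the Tbx21/Ifng class, against 17.9% and 24.7% of the naive-type class. The naive-type class served as the class that should hold little of these chemokines. Its median UMI count (3284.5 and 1774.5) was close to that of the Tbx21/Ifng class (3005.5 and 1694).

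The Tbx21/Ifng class held Ccl5 at 2925 CPM in replicate 1 and 1594 CPM in replicate 2 (mean 2260 ± 941, SD, n = 2). The TRAV11-TRAJ18 class held 1885 and 1649 CPM (1767 ± 167), the class with more than 1 state 1350 and 2108 (1729 ± 537) and the other cells 1842 and 1056 (1449 ± 555). Within each replicate the Tbx21/Ifng and TRAV11-TRAJ18 classes lay above the other cells, the latter by little in replicate 1. The rest of the order of these 4 classes changed between replicates. The Foxp3 class was lower, at 701 and 594 CPM (647 ± 76.0). Below it lay the Sostdc1/Il21 class, at 321 and 376 CPM (349 ± 39.1), and the naive-type class, at 214 and 288 CPM (251 ± 52.1). These 3 classes stood in the same order within each replicate, but which of the last 2 is lower is not settled. In replicate 1 a single cell carried 23 Ccl5 UMIs of the Sostdc1/Il21 class, and without it that class would lie below the naive-type class.

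By share of cells, Ccl5 was detected in 72.9% and 59.7% of the Tbx21/Ifng class, in 76.6% and 63.0% of the TRAV11-TRAJ18 class and in 41.6% and 32.0% of the Foxp3 class. The naive-type share was 16.4% and 21.1% as found and 9.09% and 8.62% after thinning. In the Foxp3 class the thinned share was 26.5% and 24.8%, above the thinned naive-type share in both replicates, and in the Tbx21/Ifng class it was 69.4% and 54.7%. A share at the naive-type level cannot be told from free RNA in the droplets. The Sostdc1/Il21 class held only 3 and 9 cells with Ccl5, and in replicate 1 a single cell carried 23 of its 25 UMIs.

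Xcl1 was ordered differently. It stood highest in the TRAV11-TRAJ18 class, at 632 and 474 CPM (553 ± 112, SD, n = 2), followed by the Tbx21/Ifng class at 500 and 394 CPM (447 ± 74.9). That order held within each replicate, although the 2 ranges overlapped across replicates. The other cells held 86.8 and 99.6 CPM (93.2 ± 9.06). The Foxp3 class held 18.6 and 30.4 CPM (24.5 ± 8.33) and the naive-type class 19.3 and 27.7 CPM (23.5 ± 5.93), so that these 2 did not differ beyond their spread. The Sostdc1/Il21 class (25.7 and 188 CPM, from 2 and 7 UMIs) and the class with more than 1 state (25.8 and 129 CPM) spanned the levels between.

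Detection of Xcl1 separated the TRAV11-TRAJ18 class from the Tbx21/Ifng class more than its level did. It was found in 64.0% (54.3 to 72.9) and 44.7% (39.7 to 49.8) of the TRAV11-TRAJ18 class, in 33.2% (28.6 to 38.2) and 21.2% (17.9 to 24.9) of the Tbx21/Ifng class and in 3.73% and 2.06% of the naive-type class. After thinning the shares were 34.9% and 29.0%, 17.8% and 15.6%, and 0 of 44 and 0 of 116 naive-type cells, which allows up to 6.82% and 2.59%. With 7.32% and 12.3% of the cells, the TRAV11-TRAJ18 class held 24.1% and 35.9% of all Xcl1 UMIs. The Tbx21/Ifng class held 58.8% and 37.1%, and in replicate 1 a single cell carried 47.7% of the UMIs of that class.

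By mean level, each gene of the rare trio stood lower in the naive-type and Foxp3 classes than in all T cells. The mean share of cells with Ccl3 was 0.56 ± 0.79% in the Foxp3 class and 0.26 ± 0.36% in the naive-type class. Over all T cells it was 0.70 ± 0.32% (SD, n = 2). For Ccl4 the shares were 1.12 ± 1.59%, 1.12 ± 1.58% and 2.35 ± 1.43%. By share of cells with Ccl3 or Ccl4, neither class differed from all T cells beyond the spread. Ccl1 had no UMI in the naive-type class of either replicate (3 counts would have given 5.78 and 8.30 CPM), and 0 and 3 UMIs in the Foxp3 class. The TRAV11-TRAJ18 class held it at 170 and 301 CPM, in 4 of 111 and 11 of 387 cells. The Tbx21/Ifng class held it at 145 CPM, all 208 UMIs in 1 cell, and at 501 CPM in 14 cells. The Sostdc1/Il21 class of replicate 2 reached 3899 CPM through 1 cell with 138 of 145 UMIs, while that of replicate 1 had none.

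Ccl4 was found in the TRAV11-TRAJ18 class at 518 CPM in replicate 1, where 1 cell carried 229 of 241 UMIs, and at 187 CPM in 16 cells of replicate 2. In the Tbx21/Ifng class it was found at 388 and 130 CPM, in 15 and 12 cells. The class with more than 1 state held a mean of 545 ± 102 CPM (SD, n = 2), with 48 UMIs in 1 cell of replicate 1 and 97 in 1 cell of replicate 2. The Sostdc1/Il21 class held a mean of 636 ± 899 CPM, with 98 UMIs in 1 cell of replicate 1 and no UMI in replicate 2. The other cells held 20.8 and 17.2 CPM, the Foxp3 class 6.21 and 0 CPM and the naive-type class 5.78 and 0 CPM. Ccl3 was highest in the Tbx21/Ifng class, at 31.4 and 42.7 CPM, with 41 of 45 and 30 of 47 UMIs in 1 cell each. No other class exceeded 25.8 CPM of Ccl3.

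**Figure D2:**
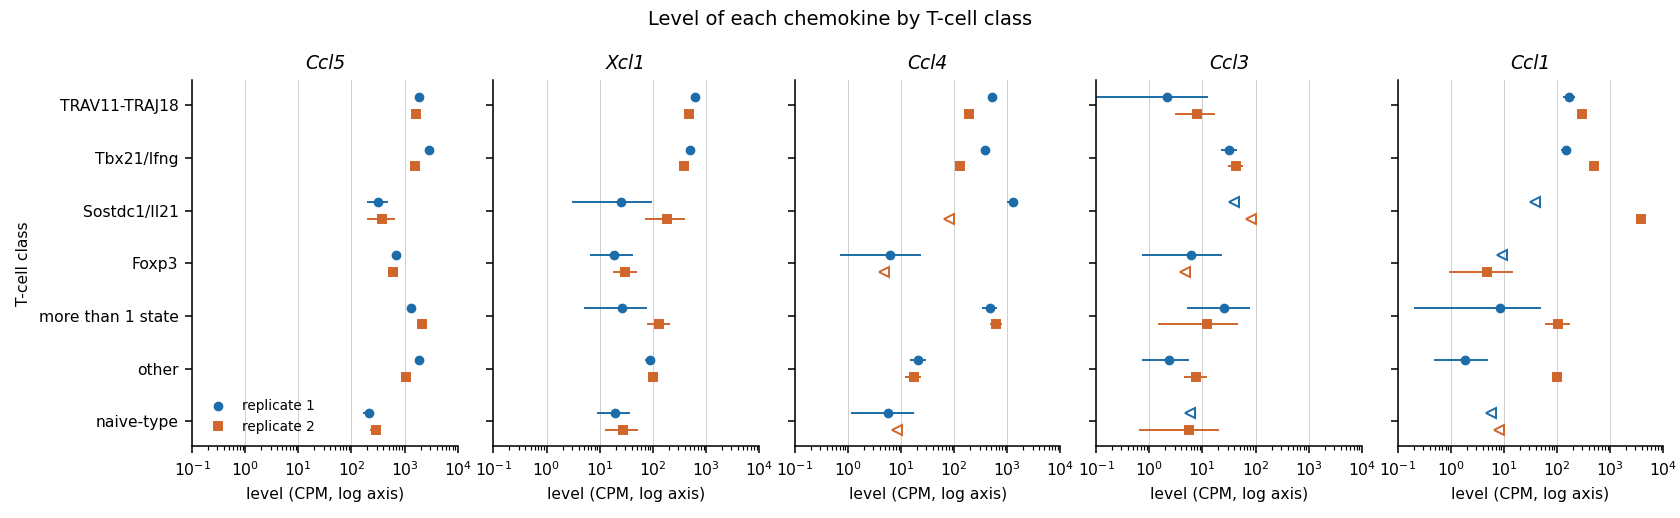
Level of each gene (horizontal axis, CPM, log axis) in 7 T-cell classes (vertical axis), 1 panel per gene, with circles for replicate 1 and squares for replicate 2. Bars are exact Poisson 95% intervals, which cover counting error only, and open triangles mark 0 UMIs, drawn at the level that 3 counts would give. Xcl1 is highest in the TRAV11-TRAJ18 class (632 and 474 CPM), and Ccl5 stands at 214 and 288 CPM in the naive-type class.

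Most cells held 0 or 1 of the 5 transcripts. None was detected in 44.5% and 48.2% of T cells, 1 in 35.4% and 40.3%, and 2 in 18.7% and 10.5%. A set of 3 was found in 19 and 18 cells, 4 in 3 and 9 cells, and all 5 in 1 and 4 cells. The median UMI count of cells with none was 2709 and 1471, and that of cells with 2 was 3147 and 1826, so cells with more of the genes were also deeper.

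Xcl1 was detected in 34.4% of cells with Ccl5 against 7.20% of cells without it in replicate 1, and in 22.5% against 10.5% in replicate 2. After thinning the shares were 17.4% against 5.43%, and 16.4% against 8.49%. Within the TRAV11-TRAJ18 class the shares were 68.2% against 50% and 46.3% against 42.0%, and after thinning they were 42.6% against 25% in replicate 1 and 28.2% against 29.8%, the other direction, in replicate 2. Cells with both transcripts made up 52.3% and 29.2% of the TRAV11-TRAJ18 class, 29.9% and 14.0% of the Tbx21/Ifng class, 5.62% and 1.80% of the Foxp3 class and 3.73% and 1.03% of the naive-type class.

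Ccl3 and Ccl4, neighbouring genes of inflammatory chemokines, were often found in the same cells. Ccl4 was detected in 9 of the 14 cells with Ccl3 in replicate 1 (64.3%, against 2.80% of cells without) and in 10 of 15 in replicate 2 (66.7%, against 1.02%). Ccl4 was detected in 2 of 10 and 12 of 42 cells with Ccl1 (20% and 28.6%, against 3.25% and 0.967% of cells without). Xcl1 was detected in 60.0% and 57.1% of cells with Ccl1, against 20.9% and 15.4%, and in 33.3% and 52.4% of cells with Ccl4, against 20.8% and 15.5%. Ccl5 was detected in 86.3% and 81.0% of cells with Ccl4, against 50.2% and 45.2%. The shares for Ccl1 and Ccl3 rest on 10 to 42 positive cells.

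Ifng, the cytokine of type 1 responses, was detected in 50% and 42.9% of cells with Ccl1, against 13.9% and 13.4% of cells without. It was detected in 25.5% and 59.5% of cells with Ccl4, against 13.8% and 13.2%, and in 27.7% and 27.5% of cells with Xcl1, against 10.5% and 11.2%. Foxp3 went the other way: it was detected in 2.80% and 6.18% of cells with Xcl1, against 7.70% and 14.3% of cells without.

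Cells with at least 10 UMIs of Ccl1, Ccl3 or Ccl4 were then listed, a count that was chosen for description. There were 7 in replicate 1 and 22 in replicate 2. By class, 2 and 7 were TRAV11-TRAJ18 cells, 2 and 7 were Tbx21/Ifng cells, 1 and 1 were Sostdc1/Il21 cells, 1 and 2 had more than 1 state and 1 and 5 were other cells. None was in the naive-type class or the class with Foxp3 alone. All had a UMI of the T-cell list, 3 and 7 had a Cd4 UMI, and 0 and 5 had no productive receptor chain.

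The richest cell of replicate 1 held 507 Ccl4, 208 Ccl1, 41 Ccl3, 342 Xcl1 and 75 Ifng UMIs but only 3 Ccl5 UMIs. The 5 chemokines made up 25.2% of its 4368 UMIs. The richest cell of replicate 2 held 323 Ccl1, 83 Ccl4, 30 Ccl3, 143 Xcl1 and 100 Ifng UMIs and no Ccl5 UMI, and the chemokines made up 19.6% of its 2952 UMIs. Both were in the Tbx21/Ifng class. Ccl1 and Ccl4 were often rich in different cells: of the 15 cells of replicate 2 with 10 or more Ccl1 UMIs, 4 also had 10 or more Ccl4 UMIs, and of the 2 in replicate 1, 1 did.

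**Figure D3:**
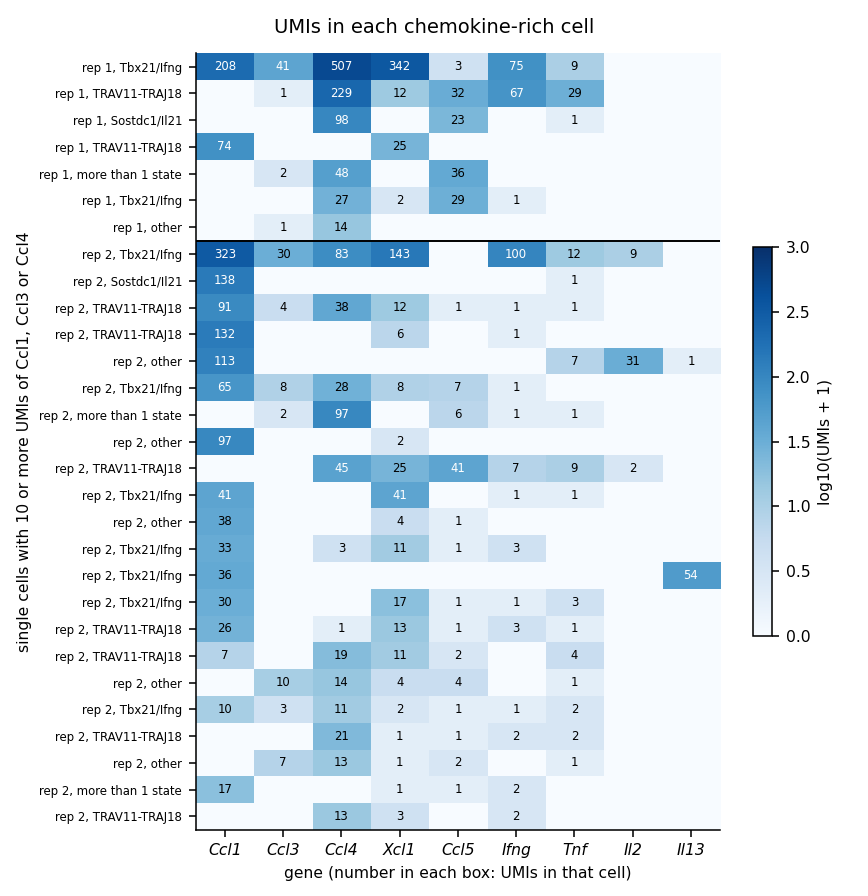
UMIs of 9 genes (columns) in each of the 29 cells with 10 or more UMIs of Ccl1, Ccl3 or Ccl4 (rows, labelled by replicate and class, with 7 cells of replicate 1 above the line), shaded by log10(UMIs + 1) with the count printed in each box. The top cell of each replicate holds Ccl1, Ccl3, Ccl4, Xcl1 and Ifng together, and several cells of replicate 2 hold Ccl1 with no Ccl4.

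Transcripts known to rise on receptor signalling were counted in these rich cells from a fixed list. In replicate 2, Tnfrsf9, a costimulatory receptor of activated T cells, was detected in 77.3% of the rich cells against 7.14% of the others, and the nuclear receptor gene Nr4a1 in 59.1% against 5.41%. Irf8 was detected in 77.3% against 5.48%, Egr2 in 50% against 1.19% and Tnf in 63.6% against 9.35%. Xcl1 was detected in 81.8% against 15.5%, whereas Ccl5 was detected in 63.6% against 45.5%. The rich cells were deeper (median 4012 against 1597 UMIs). After thinning, Tnfrsf9 stood at 45.5% against 5.12%, Nr4a1 at 36.4% against 3.38%, Xcl1 at 77.3% against 11%, and Ccl5 at 31.8% against 38.1%.

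In replicate 1 only 7 rich cells were found. They too were deeper (median 5353 against 2896 UMIs). Xcl1 and Nr4a1 were each detected in 4 of the 7, and Ifng, Tnf, Irf8 and Tnfrsf9 in 3. After thinning Xcl1 was still detected in 4 and Ifng in 3, but Nr4a1, Tnf, Irf8 and Tnfrsf9 in 1 each and Egr2 and Nr4a3 in 0. Il2 was detected in none of the 7 against 10.3% of the others, and Cd40lg in 42.9% against 50.4%. After thinning Cd40lg stood at 42.9% against 22.9%, the other direction. Cd69, an early activation marker, was detected in 28.6% of the rich cells against 41.5% of the others, while in replicate 2 it was detected in 81.8% against 29.9%. After thinning the Cd69 share of the rich cells was 28.6% against 20.4% in replicate 1, above that of the others there too.

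The genes most alike in detection were ranked over the thinned cells of each replicate by the phi coefficient, the correlation of having a UMI, among 7258 genes found in at least 1% of cells, and ordered by the lower of the 2 replicates' values. The coefficients are descriptions over cells that share a library. For Ccl5 the first was Nkg7, a cytotoxic granule protein, with phi 0.47 and 0.31, then Ctsw (0.28 and 0.22), Cxcr6 (0.30 and 0.19), Id2 (0.34 and 0.16) and Il2rb (0.17 and 0.15). For Xcl1 they were Nkg7 (0.24 and 0.23), Cxcr6 (0.21 and 0.20), Ctsw (0.18 and 0.19), Id2 (0.16 and 0.16) and the receptor segment Trbv13-2 (0.13 and 0.16). Of these 5 names, 4 were shared by both chemokines. For Ccl4, detected in 33 and 34 thinned cells, the values were weak. They were Ifng (0.10 and 0.10), Nkg7 (0.15 and 0.09), Dnmt3a (0.08 and 0.08), Chordc1 (0.09 and 0.07) and Vat1 (0.07 and 0.08). Ccl1 and Ccl3 were in too few thinned cells to rank.

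Differences between states were tested on UMIs summed over the cells of each state and of its comparison cells within each replicate, by edgeR's quasi-likelihood test with Benjamini-Hochberg adjustment over all genes tested. The comparisons share cells, so they do not bear on each other independently. Without a term for the replicate the test called no gene in any of the 4 comparisons (0.0% called). At an unadjusted p under 0.05 it gave 239 of 10707 genes (2.23%) for the Tbx21/Ifng state, 518 of 9708 (5.34%) for TRAV11-TRAJ18 cells, 145 of 9851 (1.47%) for expanded clonotypes and 827 of 10351 (7.99%) for the Sostdc1/Il21 state, and DESeq2 called 7, 64, 0 and 44 genes. Both sums of a replicate come from 1 library, and adding the replicate to the fit as a block raised the calls to 768 (7.17%), 708 (7.29%), 84 (0.853%) and 379 (3.66%). That fit has 1 residual degree of freedom per gene, its spread is borrowed across genes, and a sum gives the UMIs of 1 rich cell the weight of many cells. It can therefore call a gene whose 2 replicates went opposite ways, and such calls are named below.

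Cells with a Tbx21 or Ifng UMI (462 and 776, against 1054 and 2368 without) held more of all 5 transcripts in both replicates. The state is named for the transcription factor and the cytokine that define type 1 helper cells. Xcl1 stood at 516 CPM in replicate 1 (91.9 in the comparison cells) and at 443 CPM in replicate 2 (103 there). Ccl4 stood at 481 against 44.8 and at 238 against 12.5 CPM, and Ccl1 at 121 against 23.4 and at 491 against 102 CPM. Ccl3 stood at 27.7 against 2.10 and at 33.0 against 5.38 CPM, and Ccl5 at 2777 against 1400 and at 1638 against 985 CPM. In every case the state lay above its comparison cells within each replicate.

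The log2 fold change was 2.29 for Xcl1, 3.63 for Ccl4, 2.26 for Ccl1, 2.98 for Ccl3 and 0.88 for Ccl5 without the block, and none was called (edgeR adjusted p = 0.999982 for each). With the block all 5 rose, where 3.42% of genes tested were called higher and 3.75% lower. Xcl1 rose by 2.27 ± 0.08 (SE, edgeR adjusted p = 5.2e-18), Ccl4 by 3.69 ± 0.12 (2.5e-19), Ccl1 by 2.27 ± 0.09 (4.87e-17), Ccl3 by 2.96 ± 0.28 (1.64e-08) and Ccl5 by 0.85 ± 0.05 (2.5e-13). The median of the 5 was 2.27, beside -0.03 over all genes tested. Without the 5 richest cells of each gene, Xcl1 rose by 1.54, Ccl4 by 2.20, Ccl1 by 2.32 and Ccl5 by 0.83, all still called, and Ccl3 was too low to test. Cells of the state were deeper (median UMI count 3136 against 2787.5 and 1795 against 1542), and with cells thinned to equal depth all 5 were called with the block.

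Among other genes of the pathway, counted in the fit with the block, none of the 9 tested chemokine ligands of a list of 31 was called in the Tbx21/Ifng state. Of 13 tested effector genes 5 rose and 2 fell, with Nkg7 at 0.95, Areg at -1.50, Tnf at 0.75 and Gzmk at 0.67. Of 15 tested activation genes 3 rose and 1 fell, with Irf8 at 0.98, Egr3 at 1.61, Cd40lg at 0.34 and Tnfrsf4 at -0.58. The medians of the effector and activation lists were 0.57 and 0.11.

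Cells with the TRAV11-TRAJ18 chain, a class set by receptor sequence and not by any of the UMIs tested, held more Xcl1 and Ccl4 than cells with another alpha chain (1063 and 1427 cells). Xcl1 stood at 632 against 214 CPM and at 474 against 133 CPM, and it was detected in 64.0% against 18.9% and in 44.7% against 8.76% of cells. Ccl4 stood at 518 against 204 and at 187 against 70.2 CPM. Ccl1 stood at 170 against 57.7 CPM in replicate 1, where 1 cell carried 74 of the 79 UMIs with the chain and 1 cell 208 of the 211 with another, and at 301 against 237 CPM in replicate 2. In replicate 1 the Ccl4 values too rested on single cells, with 229 of 241 and 507 of 745 UMIs. There the 241 UMIs lay in 4 of 111 cells, a share close to the 51 of 1516 over all T cells. The mean Ccl4 share was 3.87 ± 0.38% in the TRAV11-TRAJ18 class and 2.35 ± 1.43% of all T cells (SD, n = 2). Ccl4 in replicate 1 was thus higher by level, with little difference in share of cells. Ccl5 did not move in 1 direction, with 1885 CPM against 2093 in the first replicate and 1649 CPM against 1003 in the second. Ccl3 was lower in both, at 2.15 against 14.8 and 7.90 against 12.6 CPM. Of the cells with another chain, 1 carried 41 Ccl3 UMIs in replicate 1 and 1 carried 30 in replicate 2. The direction in replicate 2 rested on that cell.

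Without the block none of the 5 was called, and Xcl1 came nearest, at 1.64 (edgeR adjusted p = 0.45). DESeq2 called Xcl1 (adjusted p = 0.0067). With the block 4 of the 5 were called higher, where 3.36% of genes tested were called higher and 3.93% lower: Xcl1 by 1.68 ± 0.11 (SE, edgeR adjusted p = 1.4e-51), Ccl4 by 1.36 ± 0.12 (3.18e-26), Ccl1 by 0.73 ± 0.13 (1.3e-06) and Ccl5 by 0.27 ± 0.07 (0.00188). The Ccl5 call came with opposite directions in the replicates, at log2 ratios of -0.15 and 0.72. Ccl3 was not called at -1.23 ± 0.55 (0.211), but was called lower with the stricter hashtag margin of 20 (-2.11, 0.0214). The cells with 41 and 30 Ccl3 UMIs were kept at that margin. Without the 5 richest cells of each gene Ccl3 was too low to test. Only the results for Xcl1 and Ccl4 had the same direction and call in every fit with the block, Ccl4 at 2.69 without the 5 richest cells of each gene: the Ccl1 call was lost without those cells (1.07, adjusted p = 0.0756) and with that margin (0.31, 0.241), and Ccl5 turned direction when the cells were limited as follows.

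Among cells that all had a Tbx21 or Ifng UMI (59 and 170 with the chain, 326 and 309 with another), Xcl1 was still higher with the chain, by 0.84 ± 0.15 with the block (edgeR adjusted p = 2.36e-06) and by a log2 ratio of 0.82 and 0.88 in the 2 replicates. Ccl4 was higher by 0.83 (1.02e-05), Ccl3 was lower, at -1.90 (0.00578), and Ccl1 (-0.30, 0.7) and Ccl5 (-0.18, 0.656) were not called. The cells with 41 and 30 Ccl3 UMIs were among those with another chain here too. The list of natural killer and innate lymphoid genes, which natural killer T cells also express, stood at 228 and 288 CPM in the TRAV11-TRAJ18 class, against 64.3 and 131 CPM in all T cells, and its part in the result was not tested.

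Invariant natural killer T cells pair their alpha chain with few beta segments, chiefly TRBV13, TRBV29 and TRBV1. TRBV13-2 was used by 47.7% and 49.9% of cells with the chain, against 9.88% and 12.3% of cells with another alpha chain. Xcl1 was detected in 66.0% and 48.2% of TRBV13-2 cells with the invariant chain, against 25.7% and 17.7% of TRBV13-2 cells with another. For TRBV29 the shares were 69.6% and 55.8% against 19.0% and 34.5%, and for TRBV1, found in only 6 and 27 cells with the invariant chain, 50% and 37.0% against 23.1% and 2.63%. In each of these segments the cells with the invariant alpha chain had the higher share in both replicates.

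In the same comparison 5 of 12 tested effector genes rose and 2 fell. Nkg7 rose by 1.20, Il4, the type 2 cytokine that these cells release quickly, by 2.77, and Ifng by 0.86, while Gzmk was at -2.33. Of 15 tested activation genes 3 rose and 2 fell, with Egr3 at 2.95, Tbx21 at 0.86, Irf8 at 0.74 and Tnfrsf4 at -3.07. Of 3 tested receptors Ccr8, the receptor of Ccl1, fell, at -2.09 (adjusted p = 5.56e-08). Of 6 tested ligands Cxcl12 rose by 0.86 and Cxcl2 was at -3.47. The effector median was 0.56, beside -0.01 over all genes.

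Expanded clonotypes were defined by sharing a beta chain (V gene, J gene and junction sequence) among 2 or more cells of a replicate, with TRAV11-TRAJ18 cells left out. The 270 and 254 expanded cells held more Ccl5 than the 933 and 1498 cells whose chain was found in 1 cell, with 4002 CPM against 1502 in the first replicate and 1560 CPM against 959 in the second. Ccl5 was detected in 78.9% against 43.8% and in 54.3% against 40.3%. Ccl4 stood at 167 against 29.9 and 183 against 7.45 CPM, and Xcl1 at 184 against 120 and 407 against 109 CPM. Xcl1 was detected in 29.3% of expanded cells of replicate 1 (16.5% of the rest) and in 12.2% of those of replicate 2 (11.4%), so in the latter its level differed more than its share. In replicate 2, 1 expanded cell held 143 Xcl1, 83 Ccl4 and 323 Ccl1 UMIs. The difference in Xcl1 level there rested on that cell. In replicate 1, 1 expanded cell held 98 Ccl4 UMIs.

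Without the block none was called, with log2 fold changes of 1.15 for Ccl5, 3.15 for Ccl4, 1.31 for Xcl1 and 3.14 for Ccl1. With the block all 4 rose, where 0.761% of genes tested were called higher and 0.0914% lower: Ccl5 by 1.04 ± 0.16 (SE, edgeR adjusted p = 0.0074), Ccl4 by 3.18 ± 0.34 (0.000482), Xcl1 by 1.23 ± 0.23 (0.0347) and Ccl1 by 3.12 ± 0.21 (9.68e-06). Ccl1 rested on replicate 2, at 1045 against 116 CPM, since replicate 1 held 0 and 2 UMIs. Ccl3 was too low to test. Without the 5 richest cells of each gene Ccl5 stayed called (0.90, adjusted p = 6.76e-05), as did Ccl1 (1.80, 0.000756), while Ccl4 (1.17, 0.209) and Xcl1 (0.56, 0.0531) were not. That fit still held 1 expanded cell of replicate 2 with 36 Ccl1 UMIs, and no Ccl1 UMI in expanded cells of replicate 1. The part of that cell in the Ccl1 call was not tested. Expanded cells were not deeper, at a median of 2812 against 2995 and 1638.5 against 1685 UMIs.

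The Ccl5 share was above that of chains found in 1 cell at every larger clonotype size. In replicate 1 it was 43.8% for chains found in 1 cell, 75.4% for those in 2, 70.0% for those in 3 to 4 and 90.7% (78 of 86 cells) for those in 5 or more. In replicate 2 it was 40.3%, 48.4%, 59.3% and 61.2% (41 of 67 cells). In replicate 1 the sizes between did not follow in order. The Xcl1 share was 16.5%, 28.1%, 34.3% and 26.7% in replicate 1 and 11.4%, 6.25%, 28.8% and 8.96% in replicate 2, so 2 of the larger sizes in replicate 2 lay below chains found in 1 cell. The clonotypes of 5 or more numbered 8 in each replicate, and cells of 1 clonotype are not independent.

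**Figure D4:**
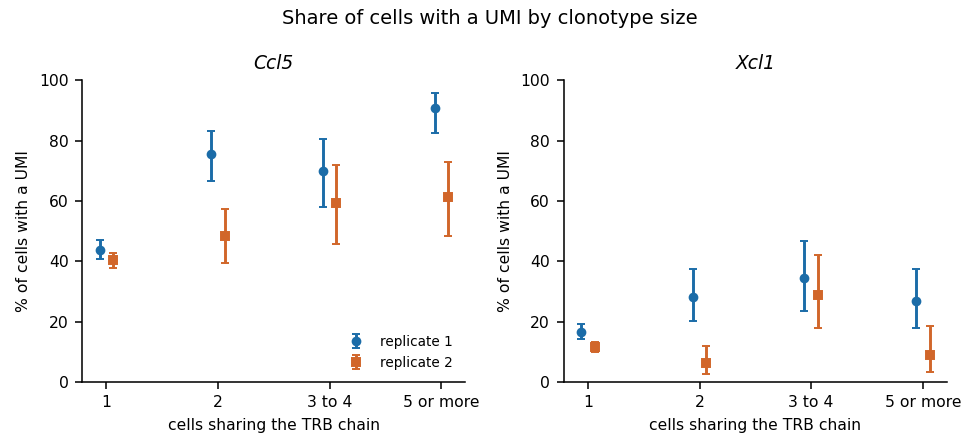
Share of cells with a UMI of Ccl5 (left) and Xcl1 (right) (vertical axis, %) by the number of cells of the replicate that share the beta chain (horizontal axis), with circles for replicate 1 and squares for replicate 2. Bars are exact binomial 95% intervals for counting error. Ccl5 goes from 43.8% and 40.3% for chains found in 1 cell to 90.7% and 61.2% for chains found in 5 or more, through 75.4% and 70.0% in replicate 1 and 48.4% and 59.3% in replicate 2.

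The junctions of 5 clonotypes are shown because their cells differed in which chemokine they held.
Replicate 1, TRBV20-TRBJ1-3: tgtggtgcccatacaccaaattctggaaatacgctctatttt
Replicate 1, TRBV20-TRBJ2-1: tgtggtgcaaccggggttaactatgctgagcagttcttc
Replicate 1, TRBV10-TRBJ2-7: tgtgccagcagccactatgaacagtacttc
Replicate 1, TRBV16-TRBJ2-4: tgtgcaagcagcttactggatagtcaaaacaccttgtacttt
Replicate 2, TRBV15-TRBJ1-1: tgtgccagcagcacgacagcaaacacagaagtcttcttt
The first was held by 17 cells, all 17 with Ccl5 (182 UMIs) and 8 with Xcl1. The TRBV20-TRBJ2-1 clonotype also had 17 cells, 13 with Ccl5 (296 UMIs) and none with Xcl1. Ccl4 was detected in 5 of the 15 cells of the TRBV10 clonotype (106 UMIs) and in 4 of the 9 cells of the TRBV16 clonotype (31 UMIs). Those 9 cells held 669 Ccl5 UMIs, a level of 24923 CPM, with every cell positive. The TRBV15 clonotype of replicate 2 had Ccl5 in 14 of 15 cells (67 UMIs) and Xcl1 in 1. These clonotypes were picked after their values were seen. Only 2 beta chains were shared between the 1020 of replicate 1 and the 1588 of replicate 2.

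Among other genes, 2 of 14 tested effector genes rose in expanded cells, Gzmk, a granzyme of memory T cells, by 1.43 and Ifng by 1.54, and none fell. None of 3 tested receptors and none of 15 tested activation genes was called. Of 9 tested ligands Cxcl12 rose by 1.45 and Cxcl13 was at -2.74. The effector median was 0.67, beside 0.01 over all genes.

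Cells with a Sostdc1 or Il21 UMI, genes of follicular helper cells, were few (27 and 33, against 1489 and 3111) and held less Ccl5. Its levels were 204 CPM in replicate 1, where the comparison cells had 1924, and 393 CPM in replicate 2, where they had 1189. Xcl1 stood at 14.6 against 245 CPM and 153 against 203 CPM. Ccl3 had no UMI in the state in either replicate. Ccl1 and Ccl4 turned on single cells: Ccl1 stood at 7.29 (1 UMI) against 58.6 CPM and at 1584 against 194 CPM, and Ccl4 at 722 against 182 CPM and at 0 against 79.8 CPM.

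Without the block no member was called in this state, with Ccl5 at -2.64 (edgeR adjusted p = 0.613) and Xcl1 at -1.79 (0.627). DESeq2 called Ccl5 (adjusted p = 0.000238). With the block Ccl5 fell, at -2.64 ± 0.18 (SE, edgeR adjusted p = 3.09e-46), and Xcl1 fell, at -1.85 ± 0.33 (5.08e-06), where 2.46% of genes tested were called lower. Ccl5 stayed called with cells thinned (-3.07) and Xcl1 did not (-1.29, 0.872). Ccl1 (1.81, 4.83e-11) and Ccl4 (1.03, 0.00398) were called higher, where 1.2% of genes were, although Ccl1 was lower in replicate 1 and Ccl4 had no UMI in the state in replicate 2, and without the 5 richest cells of each gene neither was called (0.80, 0.796 for Ccl1 and -2.31, 0.517 for Ccl4). Of 6 other tested ligands Cxcl13, the chemokine that draws B cells into follicles, rose by 4.44, and Cxcl12 was at -3.87. Of 12 tested effector genes 2 rose and 3 fell, with Gzmk at 1.57 and Nkg7 at -1.77. None of 4 tested receptors was called, and 2 of 16 activation genes rose, Tnfrsf4 by 1.48 and Egr1 by 0.92.

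**Figure D5:**
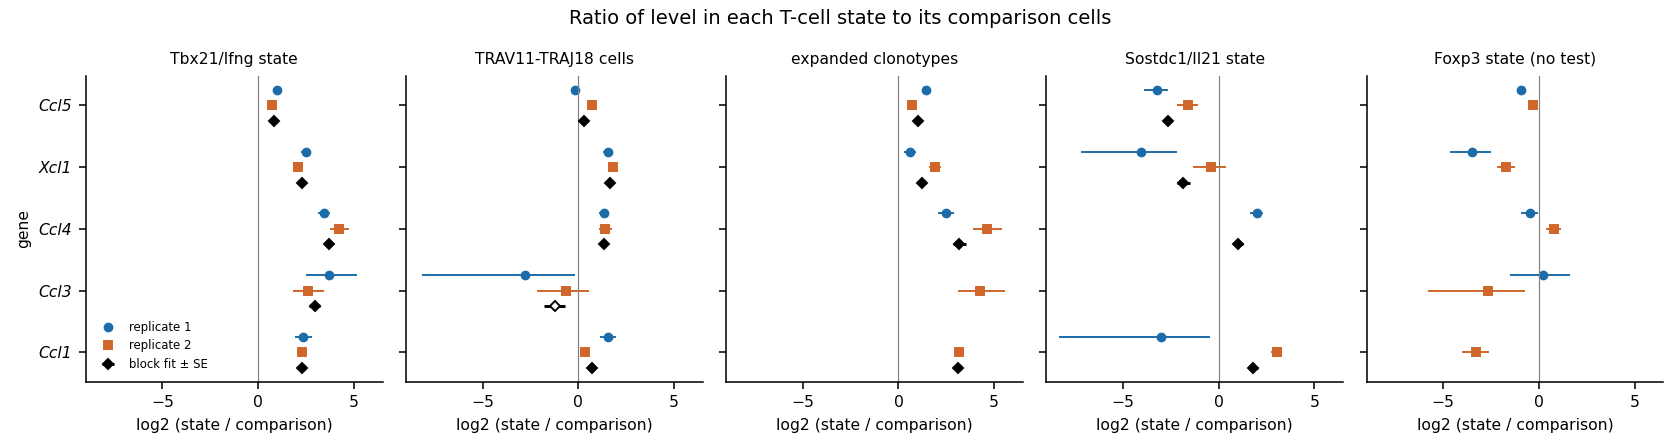
Log2 ratio of the level in each state to that in its comparison cells (horizontal axis) for the 5 genes (vertical axis), 1 panel per comparison, with circles for replicate 1 and squares for replicate 2. Lines are 95% intervals for counting error, diamonds are edgeR estimates with a replicate block ± SE (filled where adjusted p was under 0.05), and ratios with a level of 0 are not drawn. All 5 genes lie right of 0 for the Tbx21/Ifng state in both replicates, and Xcl1 lies right of 0 for TRAV11-TRAJ18 cells (1.56 and 1.83).

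For cells with a Foxp3 UMI (101 and 409, against 1415 and 2735 without) the values are a description. Foxp3 encodes the transcription factor of regulatory T cells. Xcl1 was 11.2-fold lower in replicate 1 (23.1 CPM, with 257 in the other cells) and 3.26-fold lower in replicate 2 (68.9 CPM, with 225). Ccl1 had no UMI in the Foxp3 cells of replicate 1, at least 8.07-fold lower than the 62.0 CPM of the others against a floor of 3 counts in the library's Foxp3 cells. That bound rests on 2 cells, which held 96.6% of the Ccl1 UMIs of the replicate. Ccl1 stood at 25.4 against 248 CPM in replicate 2. Ccl5 stood at 1009 against 1950 and at 987 against 1208 CPM. Its mean log2 ratio was -0.62 ± 0.47 (SD, n = 2), against -2.59 ± 1.25 for Xcl1. Ccl4 stood at 146 against 201 and at 122 against 71.2 CPM, but 1 cell carried 48 of the 57 Ccl4 UMIs of the Foxp3 cells in replicate 1 and 1 cell 97 of the 101 in replicate 2, so the direction in replicate 2 rests on that cell. Both cells were in the class with more than 1 state, and the class with Foxp3 alone held 6.21 and 0 CPM. Ccl3 stood at 12.8 against 10.8 and at 2.42 against 15.3 CPM, from 5 and 2 UMIs in the Foxp3 cells.

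Receptors described here were sparse on the T cells. Ccr8 was detected in 8.6% and 4.7% of T cells, in 9.0% and 9.9% of the Foxp3 class and in 5.4% and 1.8% of the TRAV11-TRAJ18 class. Ccr4, a receptor of skin-homing and regulatory T cells, was detected in 5.8% and 5.5% of T cells and in 16.9% and 9.6% of the Foxp3 class. Xcr1 was detected in 0.3% and 0.2% and Ccr1 in 0.5% and 0.1%, levels at which free RNA and expression cannot be told apart.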

How the data were processed

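Single-cell UMI counts of 2 meningeal CD4+ T-cell replicates were analysed as deposited by the authors: raw counts per gene and barcode, receptor contigs and hashtag counts. Per the submitters' processing notes, Cell Ranger 6.1.0, Seurat and the mm10 build were used, and per the file headers Cell Ranger 4.0.0 and 6.0.0 wrote the 2 meningeal matrices. The labels' protocol names a 3′ v2 kit and the series design a 5′ kit with receptor sequencing. Per the labels, replicate 1 carries hashtag 7 and replicate 2 hashtag 10, with 1 barcode sequence given for both, so hashtags were matched by name.

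A T cell had at least 10 counts of its own hashtag and 5 times the next, 500 genes, under 10% mitochondrial UMIs, a T-cell UMI or receptor chain, and at most 1 UMI over the B-cell and myeloid lists. Cells with 2 or more productive beta chains (89 and 169) were left out as likely doublets, and no other doublet caller was run. Cells with no productive chain (10.8% and 27.5%) were kept. CPM is a gene's UMIs scaled to a group total of 1000000. Sums were fitted with edgeR 4.0.16 (TMM, filterByExpr, R 4.3.3), with DESeq2 1.42.0 as an alternative. The edgeR fits were also run on simulated sums with known answers. Those sums had the same spread for every gene and no single rich cells, so they do not bear on genes held by a few cells. Same-numbered sums come from 1 library, and their deviations correlated over genes at r = 0.88, 0.75, 0.80 and 0.37 for the Tbx21/Ifng, TRAV11-TRAJ18, expanded and Sostdc1/Il21 comparisons, so the numbers pair the samples. Intervals and the floor of 3 counts cover counting error only.

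The members, lists and comparisons were chosen with earlier results of these data known. Every member is named in each comparison, and up to 4 called genes of each other list by smallest p; some items are not reported here. Alternatives were the block, DESeq2, no filter, hashtag margins of 2 and 20, kept doublets, no CD8 cells, thinning to 1000 UMIs, other state definitions and each replicate left out, with others added after seeing the data.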

Additional observations from a re-analysis of the deposited data

Results flagged for a closer look

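The hippocampal libraries entered no comparison, yet both held UMIs of these chemokines above the 3 counts that a count of 0 allows. The library of Foxp3-DTR- mice held 183 Ccl4 UMIs in 4 of 8220 barcodes, with 100 in 1 of them, 25 Ccl5 UMIs in 9 barcodes, 18 Ccl3 UMIs in 4 and 5 Xcl1 UMIs in 2. The library of Foxp3-DTR+ mice held 39 Ccl3 UMIs in 7 of 6548 barcodes, 34 Ccl4 UMIs in 4 and 15 Ccl5 UMIs in 12. Ccl1 was at 0 in both libraries and Xcl1 at 0 in the second, where 3 counts would give 0.0561 and 0.0838 CPM. The sort was for CD45- Thy1- cells, and C1qa, a microglial gene, had 120 and 264 UMIs and Cd3e 19 and 0 UMIs in the same libraries. With 1 library a group there is no test, and the part of these cells in the values was not tested.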

How the results depend on the processing

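Of the gene counts per comparison, the Tbx21/Ifng state called 0 genes without the replicate block and 768 with it, 7 by DESeq2 and 4 with no filter on low counts. With the block it called 668 at a hashtag margin of 20, 867 without the 5 richest cells of each member, 185 with cells thinned, 835 with a chain required and 624 without TRAV11-TRAJ18 cells. The Sostdc1/Il21 state called 379 with the block, 44 by DESeq2, 237 with no filter, and, with the block, 136 at a margin of 20, 305 without the richest cells, 100 thinned and 299 with a chain required. TRAV11-TRAJ18 cells gave 708 with the block, 64 by DESeq2, 304 with no filter, 27 thinned and 2 among cells with Tbx21 or Ifng. With the block they gave 615 at a margin of 20, 665 without the richest cells, 369 thinned and 215 among cells with Tbx21 or Ifng. Expanded clonotypes gave 84 with the block, 151 at a margin of 20, 172 without the richest cells and 36 thinned.

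In the Foxp3 comparison the Ccl1 log2 ratio of -3.29 was -3.73 at a margin of 2, -2.87 at 20, -3.32 with doublets kept, -3.12 without CD8 cells and -3.14 thinned, and Ccl4 moved from 0.16 to 1.54 thinned. Directions reversed for Ccl1 in the Sostdc1/Il21 state without replicate 2 (-3.01, and 3.03 without replicate 1), for Ccl3 there with doublets kept (1.30), and for Ccl4 there thinned (-10.04, and -10.01 with the block) and without the richest cells (-2.34, and -2.31 with the block). In TRAV11-TRAJ18 cells, among cells with Tbx21 or Ifng, Ccl1 turned to -0.0017 (-0.30 with the block) and Ccl5 to -0.23 (-0.18 with the block), and Ccl5 without replicate 2 to -0.15 (0.72 without replicate 1). The cause was not tested. The other 200 values for single genes kept their direction and, where a test was run, their side of the threshold, and 90 passed it, chiefly under the block. The block changed the calls given beside each result. Leaving out a replicate leaves no residual degrees of freedom, so no test was run there. The alternatives with the richest cells or chainless cells left out, and those that join another choice to the block, were chosen after seeing the data. Depth limits Ccl1 and Ccl3, detected in 10 to 42 cells.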
